A study of Mus musculus with 24 samples.

Results

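SINE B2 copies are the short interspersed repeats of the mouse genome that descend from a transfer RNA gene. The members described here are the loci that the repeat table of this study names SINE/B2 and for which at least 1 of its 9 value columns is not 0. There were 346646 B2 loci in the table, and 232716 of them (67.1%) met that rule. The whole table held 4929385 repeat loci, of which 2172946 (44.1%) had a nonzero value. A B2 locus had a median width of 178 bp, with quartiles of 141 and 192 bp and a longest row of 280 bp. The members are genomic copies of 1 family, so they share sequence, and reads could be split between near-identical copies; they are not replicates of a condition.

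A B2 copy carries an internal promoter with an A box and a B box that RNA polymerase III can read. Most of the many copies lie inside or beside other transcription units, however, and are also read as part of longer RNA polymerase II transcripts. Free B2 RNA is known for binding RNA polymerase II during heat shock, and B2 copies have spread binding motifs of the chromatin factor CTCF through rodent genomes. ALKBH5 is a demethylase that removes the methyl mark m6A from RNA.

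The study labelled newly made RNA in E14TG2a cells, a mouse embryonic stem cell line grown with LIF, a MEK inhibitor and a GSK3 inhibitor. Labelling with the uridine analogue 5-ethynyl uridine (EU, 1 mM) lasted 10, 20, 40 or 60 min, after which RNA carrying the label was captured and sequenced. The genotypes compared were wild type (WT), Alkbh5 knockout (KO) and Alkbh5 del-cIDR, in which the labels give a deletion of a region they call cIDR from Alkbh5. Each genotype and labelling time had 2 libraries, which makes 12 groups and 24 libraries; all were labelled with EU, so there was no unlabelled background. As a spike-in, every sample received the same amount of labelled Drosophila RNA. Whether the mutant lines are single clones, and whether 2 libraries of a group came from separate cultures, is not given in the sources used here, so p-values measure the spread between these libraries, which may be technical.

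The deposited values are log2 ratios of each later time to 10 min, pooled over 2 libraries, and whole reads that give these ratios were found for every locus. How the reads divide between the 2 libraries of a group was unclear for 155 repeat loci, 1 of them a B2 copy, and had several solutions for 1946, of which 85 were B2 copies. Spike-in reads ran from 6037 to 23382 and repeat reads from 3654850 to 22124557 per library. The level of a locus is its reads scaled to 11714 spike-in reads. Alkbh5 itself had a median level of 1490 in WT, 1063 in KO and 1871 in del-cIDR libraries; relative to the median gene it was lower by 0.60 in KO and by 0.46 in del-cIDR on the log2 scale, so reads over the gene were reduced and not absent in the KO. These whole-gene reads do not show which part is deleted. The 8 embryonic stem cell markers had mean levels between 2021 and 14069. The 5 fibroblast, 4 endoderm and 3 trophoblast markers all stayed under a mean level of 20, with Postn at 0 in 20 libraries and Cdx2 at 0 in 16. The 3 markers of the 2-cell-like state (Zscan4c, Zscan4d and Zscan4f) had summed levels of 192 to 1326 in WT, 647 to 2438 in KO and 45.8 to 387 in del-cIDR, and the 4 neural markers 159 to 1325, 465 to 2310 and 110 to 873. The part of these in the results below was not tested. The del-cIDR libraries at 10 min stood apart by their few reads per spike-in read, and the totals, the length classes and the tests of labelling time are given also without the 10 min libraries.

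B2 RNA was spread thinly over many copies. Between 88632 and 149109 B2 copies had a read in a library, and 47403 had reads in all 24 libraries. The median mean level of the members was 1.58, the 90th percentile was 23.3 and the 99th was 95.7. It took 14643 copies to hold 50% of the summed B2 level, and the 10 highest copies together held 0.451% of it. Tests were run on loci with a mean level of at least 10 over all 24 libraries and reads in at least 6 of them. This left 50919 B2 copies (21.9% of the members, with 82.7% of the summed B2 level) among 306027 repeat loci, and counts over these copies do not speak for the members below that level. Counts of 2 reads (511986 pairs of a copy and a library) were more frequent than counts of 1 read (410809), so reads cannot be taken as independent molecules.

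Long copies were read most often, but not more densely. Of the copies of 170 bp or more, 73.8% of 204914 had a nonzero value, against 63.6% of 99687 copies of 100 to under 170 bp and 43.0% of 42045 copies under 100 bp. Long copies held 69.6% of the summed B2 level and short ones 4.89%. Per 100 bp of sequence, the mean level was 3.61 in long, 3.69 in middle and 3.87 in short copies. The split between classes moved little between libraries: long copies took 69.1% to 71.1% and short copies 4.58% to 5.02% of the B2 reads of a library. The values of 71.1% and 4.58% were both from library A of del-cIDR at 10 min, and without the 10 min libraries the ranges were 69.1% to 70.2% and 4.81% to 5.02%. The log2 ratio of long to short copies differed between genotypes by -0.003 ± 0.005 (SE) for KO minus WT and by 0.024 ± 0.009 for del-cIDR minus WT, with adjusted p = 0.748 and 0.400 (exact permutation test, two-sided, with genotypes exchanged among libraries of 1 labelling time, 3 comparisons). Without the 10 min libraries, an alternative added after the data were seen, these differences were 0.0008 ± 0.0053 (SE) and -0.0059 ± 0.0064, so the second changed its sign. The slope of the ratio per doubling of labelling time, common to the 3 genotypes, was -0.005 (permutation of labelling time within genotype, 100000 resamples, two-sided p = 0.520). By genotype it was -0.0029 in WT, 0.0145 in KO and -0.0269 in del-cIDR, and these slopes were not tested singly.

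The amount of B2 RNA per spike-in read was higher at 40 and 60 min than at 10 min in every genotype. In WT the 2 libraries of 10 min had 71.8 and 51.1 B2 reads per spike-in read, those of 20 min 111 and 106, those of 40 min 171 and 262, and those of 60 min 195 and 259. In KO the values were, in the same order of labelling times, 91.9 and 112, 121 and 141, 182 and 216, and 297 and 261. In del-cIDR they were 35.9 and 39.3, 146 and 226, 249 and 329, and 209 and 289. At 10 min the 3 genotypes did not overlap, with del-cIDR lowest and KO highest. At 20 min they did not overlap either, but WT was lowest and del-cIDR highest. At 40 and 60 min the ranges of WT and del-cIDR overlapped. Averaged over labelling times, the log2 total was higher by 0.31 ± 0.13 (SE) in KO than in WT and by 0.16 ± 0.16 in del-cIDR than in WT, and lower by 0.15 ± 0.13 in del-cIDR than in KO, a log2 difference of -0.15. None of these passed the test (the same exact permutation test, 1296 arrangements, adjusted p = 0.139, 0.526 and 0.526). Without the 10 min libraries the difference of del-cIDR from KO was 0.27, of the other sign.

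The change from 10 min to the later times did differ in del-cIDR, by a contrast that was not among the planned tests. Its permutation exchanged genotypes within each labelling time, and so assumed no genotype difference at any time. A small p is therefore not particular to a change over time. The del-cIDR minus WT difference in the log2 total was -0.69 at 10 min and 0.75, 0.43 and 0.13 at 20, 40 and 60 min, so the later times exceeded 10 min by 1.13 (exact two-sided permutation, adjusted p = 0.0185 over 3 comparisons). For del-cIDR minus KO the corresponding value was 1.71 (exact permutation, adjusted p = 0.0463), and for KO minus WT it was -0.58 (adjusted p = 0.326). Both del-cIDR values rest on the 2 del-cIDR libraries at 10 min. That of del-cIDR minus KO rests also on the 2 KO libraries at 10 min, where KO was highest.

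**Figure D1:**
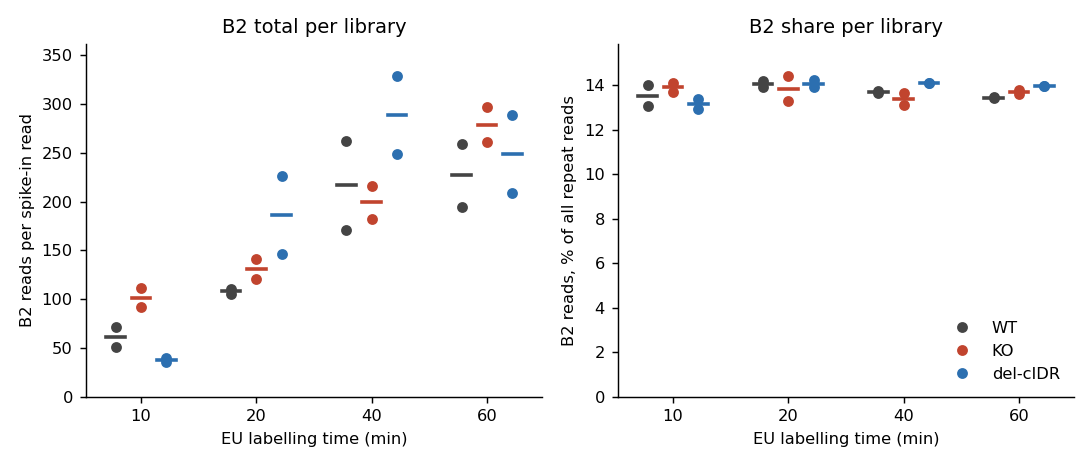
B2 reads per spike-in read (left) and B2 reads as a percentage of all repeat reads (right) against EU labelling time in min; each point is 1 library, bars are the mean of 2, and colours are genotypes. The totals run from 35.9 to 329, while the shares stay between 12.9% and 14.4%.

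The share of B2 among all repeat reads hardly moved. It was lowest at 12.9%, had a median of 13.8% and was highest at 14.4% over the 24 libraries, a 1.11-fold range, while the total per spike-in read spanned 9.17-fold. WT libraries lay between 13.1% and 14.2%, KO libraries between 13.1% and 14.4%, and del-cIDR libraries between 12.9% and 14.2%, so the ranges over all labelling times overlapped. At 40 min both del-cIDR libraries (14.10% and 14.11%) lay above WT (13.75% and 13.63%) and KO (13.11% and 13.65%). At 60 min they did so too, with 13.95% in both, against 13.47% and 13.40% in WT and 13.78% and 13.58% in KO. The log2 share differed by 0.003 ± 0.022 (SE) for KO minus WT, 0.015 ± 0.015 for del-cIDR minus WT and 0.012 ± 0.019 for del-cIDR minus KO (exact two-sided permutation, adjusted p = 0.903 for each). Without the 10 min libraries the difference of del-cIDR from WT was 0.033 (exact permutation, adjusted p = 0.0556). The same unplanned contrast, later times minus 10 min, gave 0.07 for del-cIDR minus WT (adjusted p = 0.273) and 0.12 for del-cIDR minus KO (adjusted p = 0.0509, exact permutation). The slope of the share per doubling of labelling time was 0.004 (100000 resamples, two-sided permutation p = 0.688), and without the 10 min libraries it was -0.02. Other families showed ranges of similar size: B1 took 10.5% to 11.9%, B4 7.97% to 9.37%, MIR 0.555% to 0.653% and L1 19.2% to 23.4% of the repeat reads.

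Single copies were mostly higher at the later times, least so in KO at 20 min. In the authors' deposited table, the 60 over 10 min log2 ratio of the 50919 tested B2 copies had a median of 1.90 in WT, 1.46 in KO and 2.82 in del-cIDR, and it was above 0 in 99.7%, 98.9% and 99.9% of them. At 20 over 10 min the medians in that table were 0.81, 0.36 and 2.40, and 92.5%, 74.3% and 99.7% of the copies were above 0. The deposited ratio has the 10 min libraries of its own genotype as its base, so the high del-cIDR and low KO values go with the low and high 10 min totals given above. The same medians and shares over all repeat loci are not given here, so these values are not shown to be particular to B2.

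For tests of single copies, each library was set relative to its own median tested repeat locus, so that a difference means a departure from the bulk of repeats and not from the spike-in. In the KO, 1188 B2 copies were called higher and 1494 lower than in WT (limma, adjusted p under 0.05 over all loci), which is 2.33% and 2.93% of those tested; over all repeat loci the shares were 2.71% and 4.11%. In del-cIDR, 391 were called higher and 797 lower (0.768% and 1.57%), against 1.01% and 2.59% of all loci. Between both mutants 2917 were higher and 3280 lower in del-cIDR than in KO (5.73% and 6.44%), against 6.84% and 7.86% of all loci. Each share of B2 copies thus lay near or under that of repeats in general. The median difference over all tested B2 copies was -0.04, -0.01 and 0.04 on the log2 scale, beside -0.03, -0.02 and 0.03 over all loci.

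The call depended on depth and on the scale. Of the copies with a mean level of 10 to 20, 0.878% were higher and 1.92% lower in KO, and of those at 100 or more 8.89% were higher and 10.4% lower. Among called copies, 167 of 1188 rises and 471 of 1494 falls in KO were larger than 2-fold. In del-cIDR 89 of 391 rises and 228 of 797 falls were. With levels left per spike-in read, as deposited, the median locus moved by 0.32 for KO minus WT, 0.16 for del-cIDR minus WT and -0.16 for del-cIDR minus KO. The split of calls then became 4014 higher and 268 lower, 278 higher and 113 lower, and 778 higher and 3653 lower, in the same order. Over all repeat loci the shares on that scale were 8.88% for rises and 1.12% for falls (KO minus WT), 0.772% and 0.677% (del-cIDR minus WT), and 2.42% and 8.63% (del-cIDR minus KO). Leaving out 1 library at a time gave 764 (without library B of KO 60 min) to 1821 (without library A of WT 10 min) rises and 970 (without B of WT 40 min) to 2314 (without A of KO 20 min) falls in KO. For del-cIDR the ranges were 199 (without B of del-cIDR 60 min) to 986 (without A of WT 10 min) rises and 470 (without A of WT 60 min) to 1626 (without A of del-cIDR 10 min) falls.

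**Figure D2:**
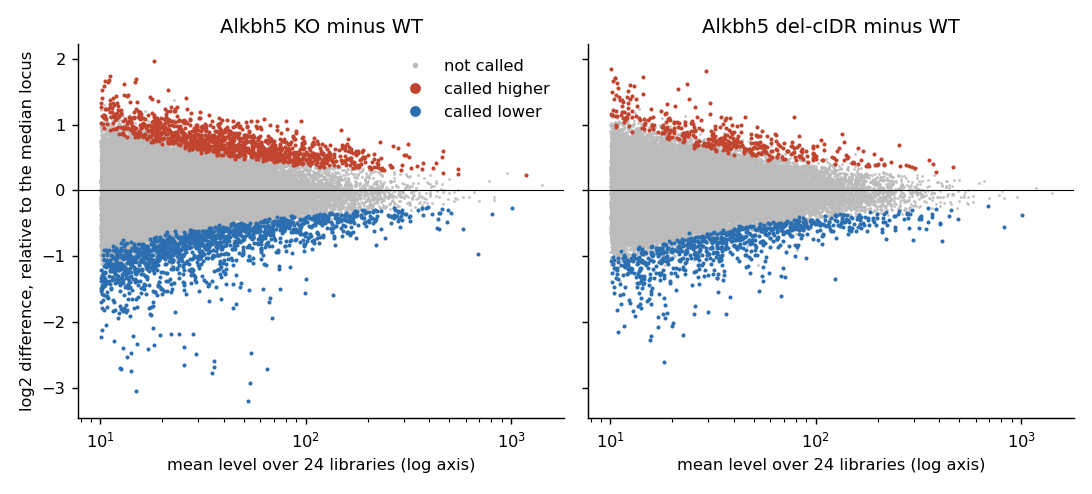
Log2 difference of each tested B2 copy from WT, relative to the median repeat locus, against its mean level over 24 libraries (log axis); grey points are not called, red points are called higher and blue points lower. In KO 1188 copies are red and 1494 blue, in del-cIDR 391 and 797.

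Rises of B2 copies in the KO were concentrated on 3 chromosomes. Of the 1188 copies called higher, 481 were on chromosome 6, 246 on chromosome 8 and 296 on chromosome 11, and 145 were outside chromosomes 4, 6, 8, 11 and X. On chromosomes 6, 8 and 11 this was 16.2%, 8.65% and 6.25% of the B2 copies tested, against 2.71% of all repeat loci. The 2968 tested copies of chromosome 6 had a median difference of 0.38 and the 2845 of chromosome 8 of 0.30. On chromosome 11 the 1095 copies between 13 and 57 Mb had a median of 0.47, and the 3642 elsewhere on it of -0.07. The medians of the remaining autosomes lay between -0.10 and -0.05. Other repeats of the same chromosomes had the same medians within 0.1: 0.37 on chromosome 6, 0.29 on chromosome 8 and 0.04 on the whole of chromosome 11, where B2 copies had 0.01. Falls lay mostly outside chromosomes 4, 6, 8, 11 and X, with 1207 of 1494 there, 3.40% of the 35523 copies tested there. On chromosomes 6 and 8 together 28 of 5813 copies were lower (0.482%), against 4.11% of all repeat loci. When the loci of chromosomes 4, 6, 8, 11 and X were left out of the fit, the median locus was taken over those that remained. Of the 35523 B2 copies, 198 were then called higher and 606 lower in KO, against 145 and 1207 in the main fit. Of all repeat loci that remained, 0.967% were called higher and 2.72% lower.

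In del-cIDR the X chromosome differed most. Its 1168 tested B2 copies had a median difference of 0.27 from WT and held 113 of the 391 rises, and the other X-linked repeats had a median of 0.19. The rises were 9.67% of these copies, against 1.01% of all repeat loci. B2 copies of chromosomes 6, 8 and 12 had medians of -0.09, -0.14 and -0.11, and other repeats there had -0.10, -0.14 and -0.09. The B2 falls on them were 85, 111 and 69. These were 2.86%, 3.90% and 3.32% of those tested, against 2.59% of all repeat loci. On chromosome 4, 20 of the 70 tested copies in chr4:133000094-133995518 were lower and the median was -0.71, whereas the 3608 copies elsewhere on it had a median of 0.005. Other repeats of that region were not summarized, so this is not shown to be particular to B2.

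Medians per library were taken for the chromosomes and regions named above. Relative to B2 copies of the autosomes other than 4, 6, 8 and 11, the median copy of chromosome 6 lay at 0 to 0.06 in the 8 WT libraries, at 0.39 to 0.55 in the 8 KO libraries and at -0.26 to 0 in the 8 del-cIDR libraries. The KO libraries did not overlap the others, whereas WT and del-cIDR met at 0. Chromosome 8 gave -0.05 to 0.06 in WT, 0.28 to 0.39 in KO and -0.26 to -0.10 in del-cIDR. The X chromosome gave -0.35 to -0.16 in WT, -0.34 to -0.15 in KO and -0.06 to 0.14 in del-cIDR. The 13 to 57 Mb region of chromosome 11 gave 0 to 0.19 in WT, 0.57 to 0.66 in KO and 0.06 to 0.22 in del-cIDR, where only KO stood apart. Chromosome 12 gave -0.05 to 0 in WT, -0.07 to 0 in KO and -0.17 to 0 in del-cIDR, so all genotypes met there. The 70 copies of the chromosome 4 region gave -0.49 to 0 in WT, 0.12 to 0.32 in KO and -0.92 to -0.53 in del-cIDR, with no overlap between genotypes. The regions were known from earlier results of these data, so these values are a description with no test.

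**Figure D3:**
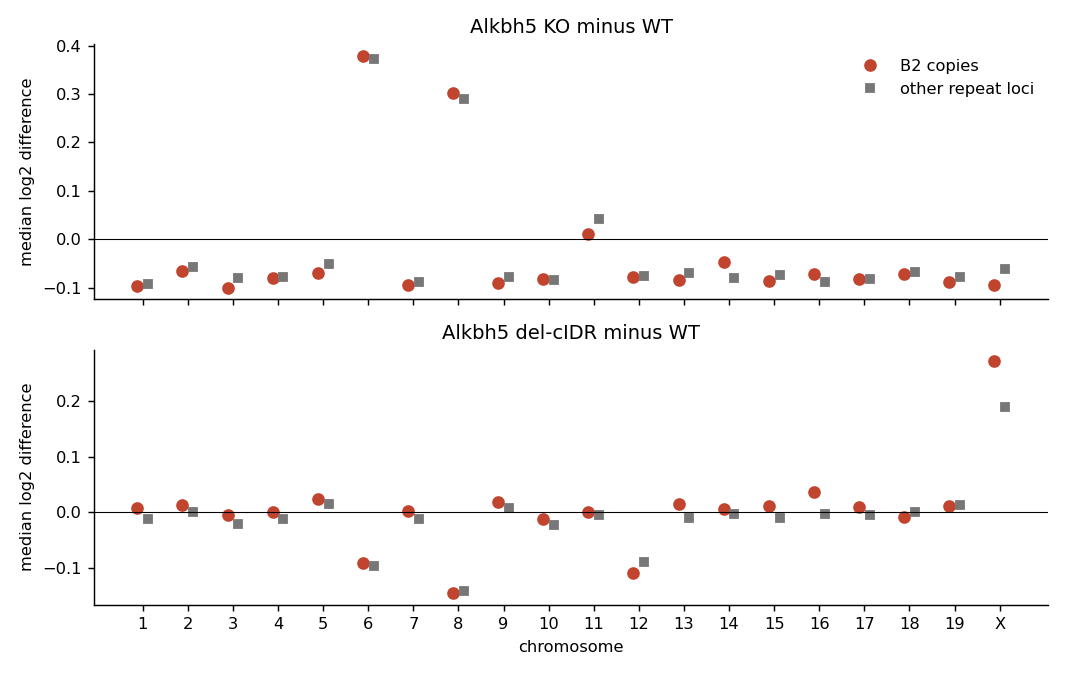
Median log2 difference from WT by chromosome, for tested B2 copies (circles) and for all other tested repeat loci (squares), in KO (top) and del-cIDR (bottom). In KO chromosomes 6 and 8 stand at 0.38 and 0.30 for B2 copies, and in del-cIDR the X chromosome stands at 0.27, beside 0.37, 0.29 and 0.19 for the other loci.

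B2 copies moved with the repeats around them. For 50119 tested copies the summed reads of all repeats of other families within 10 kb served as a local reference, with a median of 34 such loci. Over these copies, the difference of the B2 copy and that of its neighbours had a Pearson r of 0.67 for KO minus WT, 0.59 for del-cIDR minus WT and 0.75 for del-cIDR minus KO. The r is given as a description, since the same libraries enter both values. Of the called copies with a neighbourhood, 2493 of 2563 in KO (97.3%) and 1135 of 1165 in del-cIDR (97.4%) had the sign of their neighbours. The median size of the difference of called copies fell from 0.75 to 0.21 in KO and from 0.77 to 0.32 in del-cIDR once the neighbours' difference was taken off.

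Few B2 copies departed from their neighbourhood. With each copy set relative to its neighbours, an alternative added after the data were seen, 4 B2 copies were called higher and 12 lower in KO (limma, adjusted over 284638 loci with a neighbourhood), 0.00798% and 0.0239% of those tested, against 0.0144% and 0.0232% of all such loci. In del-cIDR 2 were higher and 2 lower (0.00399% each), against 0.00878% and 0.0141%. For del-cIDR minus KO 60 were higher and 17 lower (0.12% and 0.0339%), against 0.108% and 0.1%. The SE of a relative difference had a median of 0.23, and that of the plain difference 0.24.

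**Figure D4:**
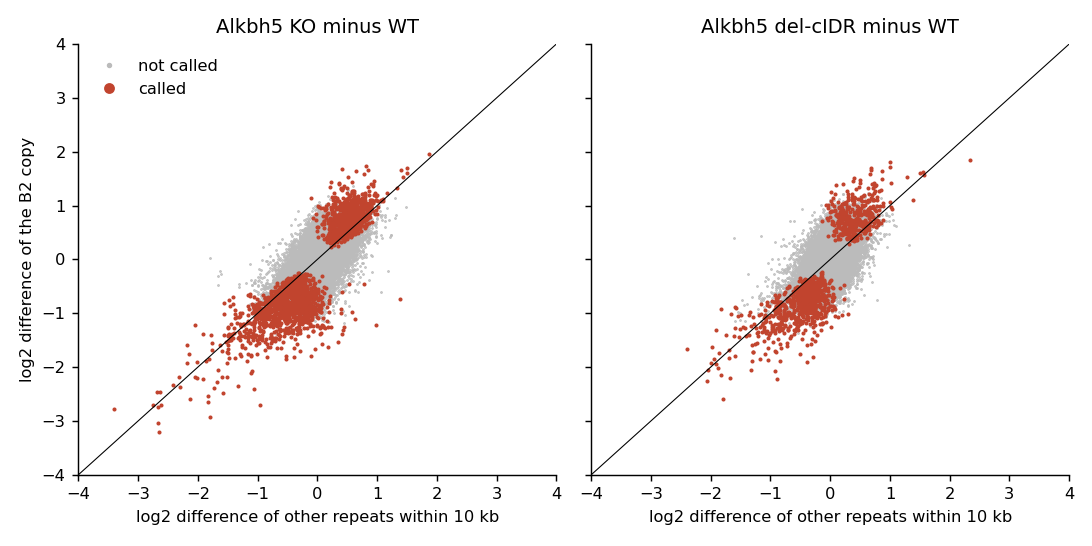
Log2 difference from WT of each B2 copy (vertical) against that of all other repeats within 10 kb (horizontal), both relative to the median repeat locus; red points are called copies and the line marks equal differences. Called copies lie on both ends of the diagonal, with 97.3% sharing the sign of their neighbours in KO and 97.4% in del-cIDR.

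The copies that did depart are few enough to name, and were chosen after their values were seen. In KO, chr10:66722333-66722525 was well covered (mean level 119) and was lower by 0.45 while its neighbours were higher by 0.77, a relative difference of -1.20 (adjusted p = 0.000485). The copy chr6:51578145-51578304 (mean level 24.4) was lower by 0.73 where its neighbours were higher by 1.38, giving -2.09 (adjusted p = 0.00202). The copy chr4:146489456-146489648 (mean level 69.7) had -0.26 where its neighbours had -1.61, giving 1.36 (adjusted p = 0.00959). In del-cIDR, chr13:22200083-22200268 (mean level 10.2) had 0.40 where its neighbours had -1.61, a relative difference of 2.03 (adjusted p = 0.0295). The other relative calls in both mutants ran from -2.19 to 1.85. All coordinates are those of the GRCm39 build that the labels name; gene annotation of that build was not used here, so the genes around a copy are not given.

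Neighbouring copies were often called together. Joining copies called in the same direction and at most 50 kb apart, the 1188 rises in KO fell into 471 runs, and 49.1% of them lay in runs of 5 or more. For the KO falls it was 28.8%, and for rises and falls in del-cIDR 19.7% and 14.8%. Called copies of B1, the SINE/Alu family of the table with 42494 tested copies, gave 43.5% and 22.2% in KO and 21.4% and 17.2% in del-cIDR by the same joining, and the differences between the families were not tested. The run with most rises in KO held 25 called of 58 tested copies at chr11:54401946-54676664, where the median B2 difference was 0.62 and that of the 233 other repeat loci 0.58. The run with most falls in KO held 15 of 18 copies at chr10:3790970-3911468, with -0.91 for B2 and -0.997 for the other loci. In del-cIDR the run with most rises held 27 of 64 copies at chrX:104908073-105064862 (0.62, others 0.59), and that of falls 17 of 28 at chr8:112618341-112685564 (-0.67, others -0.75). Of the 20 runs with most called copies (5 for each mutant and direction), 12 had a median of the other sign in the other mutant. Several of these medians lay near 0, such as -0.02, 0.06 and 0.07. The count has no background of other runs and was not tested. Among the del-cIDR falls, at chr6:67169738-67235497, 17 tested copies had a median of -1.04 in del-cIDR and 0.65 in KO, and at chr8:107344696-107427225, 19 copies had -0.80 and 0.65. All tested B2 copies of chromosomes 6 and 8 had medians of 0.38 and 0.30 in KO, and of -0.09 and -0.14 in del-cIDR. Both comparisons share the WT libraries.

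By length class the shares called were as follows, and differences between the classes were not tested. In KO 1.62% of short, 2.29% of middle and 2.40% of long copies were called higher, and 2.81%, 2.5% and 3.10% lower. The median differences were -0.05, -0.03 and -0.04. In del-cIDR 0.474%, 0.858% and 0.756% were higher and 1.46%, 1.41% and 1.63% lower. By level over the surroundings, which was likewise not tested, the shares were as follows. Of copies with under 1 times the level per 100 bp of the other repeats within 10 kb, 1.57% were higher and 1.64% lower in KO, and at 4 times or more it was 3.69% and 5.97%. The median level was 16.4 in the first class, and 37.3 in copies of 4 to 10 times.

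More tested copies lay above the read density of their surroundings than below it. Tested copies had to reach a mean level of 10 themselves, whereas the other repeats within 10 kb were summed with no such limit on each. The ratio may be raised by this choice. The median tested copy had a level of 12.98 per 100 bp, against 9.39 for other repeats within 10 kb, and the ratio had a median of 1.51 with quartiles of 0.941 and 2.53. Only 678 of 50119 copies (1.35%) exceeded their surroundings more than 10-fold. In the authors' deposited table these 678 had a median 60 over 10 min log2 ratio of 1.88 in WT, 1.497 in KO and 2.68 in del-cIDR, close to the 1.91, 1.45 and 2.88 of the 14007 copies below their surroundings.

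The 10 copies with the highest mean level differed by less than 2-fold between any mutant and WT. The highest was chr6:122690585-122690771, with a mean level of 1419, 759 per 100 bp, which is 42.8 times its surroundings; its level ran from 290 to 2536 in WT, 560 to 2812 in KO and 263 to 2663 in del-cIDR. The genotypes overlapped, and its relative level differed by 0.09 in KO and -0.04 in del-cIDR (adjusted p = 0.523 and 0.850). Its reads could not be split between libraries A and B in every group, so its error is not reliable. The next was chr6:67254519-67254636 (mean level 1181), with 0.23 ± 0.07 (SE, adjusted p = 0.0297) in KO and 0.03 in del-cIDR. The copy chr3:41512624-41512805 (mean level 1013) was lower in both, by 0.26 (adjusted p = 0.00976) and by 0.38 (adjusted p = 0.000336). Its neighbours were lower too, at -0.32 and -0.44.

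Among these 10, the copy chr4:145164304-145164515 moved most. Its mean level was 688. On the scale relative to the median locus its log2 level had a minimum of 4.70, a median of 5.23 and a maximum of 5.56 in the 8 WT libraries, 3.98, 4.21 and 4.50 in KO, and 4.74, 4.93 and 5.08 in del-cIDR. KO libraries did not overlap those of WT or del-cIDR. The copy was lower by 0.96 in KO (SE 0.07, adjusted p = 4.86e-12), its neighbours were at -0.89, and in del-cIDR it was lower by 0.24 (adjusted p = 0.0336). In del-cIDR the copy chr9:15218795-15218894 (mean level 828) had values of 4.61 to 5.06 against 5.24 to 5.64 in WT, with no overlap, and was lower by 0.56 (SE 0.06, adjusted p = 5.21e-07); its neighbours were at -0.44. Of the 10, 1 was called higher and 3 lower in KO, and 0 higher and 3 lower in del-cIDR.

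The largest falls in KO left few reads. At chr7:26095597-26095727 the relative log2 level was 0.90 to 2.61 in WT with a median of 1.94, -4.35 to 0.11 in KO with a median of -0.44, and 0.00 to 1.57 in del-cIDR with a median of 0.93. KO did not overlap WT. In reads, the copy had 12 to 182 per WT library and 0 to 27 per KO library. The log2 difference was -3.20 ± 0.37 (SE, adjusted p = 4.38e-07), and the neighbours were at -2.64. At chr14:32026021-32026204 WT had 1.07 to 2.15 (median 1.66), KO -1.86 to -0.42 (median -1.33) and del-cIDR 1.39 to 2.04 (median 1.78). WT and del-cIDR overlapped and KO lay below both. The difference was -2.92 ± 0.18 (adjusted p = 3.49e-13), larger than the -1.80 of its neighbours; relative to these it was -1.11 (adjusted p = 0.0509), and del-cIDR exceeded KO by 1.01 relative to them (adjusted p = 0.0327). The remaining falls named by rule were chr10:41280823-41281006 (-2.78), chr1:9019361-9019545 (-2.70), chr5:66215056-66215276 (-2.68) and chr11:101504057-101504161 (-2.65). Both libraries of KO lay below both of WT at all 4 labelling times in each of these 6 copies. The copies were chosen by size, adjusted p and 1 sign at all 4 times, so this order follows largely from the choice and is no support.

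Rises in KO were smaller. The largest by rule was chr7:30180266-30180478, with a relative log2 level of -1.49 to -0.36 (median -0.92) in WT, -0.78 to 1.18 (median 0.68) in KO and -1.73 to -0.21 (median -0.81) in del-cIDR. KO and WT overlapped, and the difference was 1.52 ± 0.26 (SE, adjusted p = 0.000263), beside 1.43 for its neighbours. At chr6:120243061-120243265 WT had -0.86 to 0.19 (median -0.43) and KO 0.06 to 1.30 (median 0.90), which overlapped slightly, with a difference of 1.26 ± 0.21 (adjusted p = 0.000181) and 0.87 for the neighbours. Of the 6 rises named, chr11:20515346-20515537 (1.41) and chr11:29186872-29187060 (1.27) lie between 13 and 57 Mb of chromosome 11, and chr8:81504931-81505106 (1.24) and chr8:13411959-13412154 (1.23) on chromosome 8. Their neighbours were higher by 0.59 to 0.90.

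In del-cIDR the largest rise was chr10:70681088-70681262. Its relative log2 level was -1.30 to 0.00 (median -0.76) in WT, -2.64 to -0.70 (median -1.18) in KO and 0.00 to 1.62 (median 1.41) in del-cIDR. WT and del-cIDR met at the lowest del-cIDR library, and at 20, 40 and 60 min the differences were 2.48, 2.32 and 2.01, against 0.43 at 10 min. The mean difference was 1.81 ± 0.21 (SE, adjusted p = 8.33e-07), with 1.001 for the neighbours, and KO was lower than WT by 0.81 (adjusted p = 0.0141). The next was chr3:90430955-90431159 at 1.62, and the other 4 were on the X chromosome, at chrX:138958554-138958751 (1.53), chrX:103011031-103011217 (1.39), chrX:158339444-158339608 (1.33) and chrX:161775269-161775484 (1.29).

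The largest fall in del-cIDR was on chromosome 1. At chr1:16969012-16969184 WT had -0.86 to 1.16 (median 0.43), KO -0.78 to 0.84 (median 0.47) and del-cIDR -2.55 to -0.95 (median -2.08). Del-cIDR lay below both other genotypes, by 2.20 from WT (log2 difference -2.20 ± 0.28, SE, adjusted p = 4.96e-06), beside -1.68 for the neighbours. The copy chr3:78950491-78950648 was the only named fall that also left its neighbourhood: WT had 0.52 to 1.34 (median 1.03), KO 0.82 to 1.84 (median 1.15) and del-cIDR -1.24 to 0.18 (median -1.09), with no overlap of del-cIDR and the others. It differed from WT by -1.88 ± 0.18 (adjusted p = 2.29e-08) and from its neighbours' difference by -1.03 (adjusted p = 0.0458). The other falls named were chr3:30604533-30604664 (-2.06), chr2:152489022-152489229 (-2.01), chr11:25979270-25979445 (-1.88) and chr6:121625236-121625416 (-1.76). At chr11:25979270-25979445 the KO was higher than WT by 1.07 (adjusted p = 0.0280), so that del-cIDR and KO were 2.95 apart.

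Between both mutants, the largest rises in del-cIDR over KO were the KO falls chr1:9019361-9019545 (3.22) and chr14:32026021-32026204 (3.06), and chr11:101507482-101507652 (2.89). The largest falls were chr11:25979270-25979445 (-2.95), chr3:30604533-30604664 (-2.69) and chr2:152489022-152489229 (-2.47). Del-cIDR and KO libraries did not overlap at any of these 6 copies, which follows largely from their choice as the largest calls of this comparison and is no support.

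**Figure D5:**
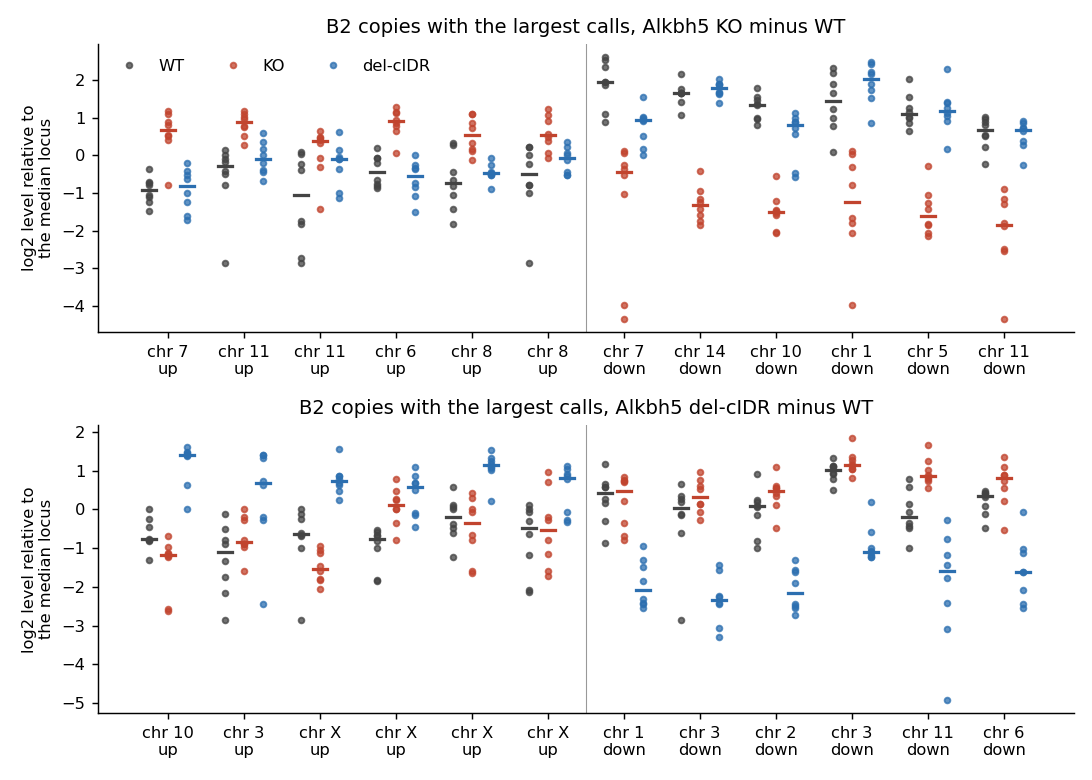
Log2 level relative to the median repeat locus in each of 24 libraries, for the 6 largest rises and 6 largest falls of B2 copies in KO (top) and in del-cIDR (bottom), named by chromosome; points are libraries, bars are genotype medians. The largest fall in KO, on chromosome 7, has a WT median of 1.94 and a KO median of -0.44.

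A dependence of the genotype difference on labelling time was found for few copies. For KO minus WT the limma F-test over all loci called 0 B2 copies, and 0 of all repeat loci (0%), and 0 B2 copies also when limma was run without a trend. An unadjusted p under 0.05 was found for 2471 of 50919 B2 copies, no larger a share than the 0.05 that chance alone would give. For del-cIDR minus WT 4938 of them had an unadjusted p under 0.05. Unadjusted counts over all repeat loci are not given here, so neither count is shown to be particular to B2. The F-test called 55 B2 copies, 0.108% of those tested, against 0.0971% of all loci. The count of 55 went to 0 without the 10 min libraries and to 0 without a trend. The copy with the smallest p was chr3:157721036-157721232, where the difference was -2.09 at 10 min and 1.13, 0.63 and 0.07 at 20, 40 and 60 min (adjusted p = 0.00163). At chr5:106827362-106827495 it was -2.38 at 10 min and 0.44, -0.03 and 0.37 later (adjusted p = 0.00629). The copy chr9:108129595-108129787 went the other way, with 0.84 at 10 min and -0.97, -0.39 and -0.10 later (adjusted p = 0.00906). That copy had a level of 139 to 383 in WT, 160 to 374 in KO and 151 to 407 in del-cIDR, 24.4 times its surroundings. In the authors' deposited table its 60 over 10 min log2 ratio was 1.23 in WT, 1.05 in KO and 1.003 in del-cIDR, below the median B2 copy of each genotype. In KO the 3 copies with the smallest p were chr4:59654207-59654399, chr14:72936228-72936405 and chr11:117590459-117590649, with adjusted p of 0.894, 0.983 and 0.983.

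Genes that read, bind or silence SINE copies were looked up in the gene table, where calls were frequent: 15.6% of 22448 tested genes were higher and 17.2% lower in KO, 11.7% and 17% in del-cIDR, and 22.1% and 23.5% in del-cIDR against KO. For strongly read genes the split between libraries A and B was often unclear and was set to the usual ratio, which makes their SE too small; counts of genes with a clear split are given apart. The 30 genes of RNA polymerase III transcription were all tested. In KO 3 were higher and 4 lower, with a median of -0.04, and in del-cIDR 5 were higher and 6 lower, with a median of -0.06. Over all genes the medians were -0.01 and -0.02. Of the 20 with a clear split, 3 were higher and 2 lower in KO, and 3 higher and 4 lower in del-cIDR. Brf2, an assembly factor of the type of RNA polymerase III promoter that lies outside the gene, was higher by 0.48 ± 0.08 (SE) in KO (adjusted p = 3.26e-05) and had -0.23 in del-cIDR (adjusted p = 0.0299). Brf1, the TFIIIB subunit used at internal promoters such as that of B2, had 0.03 in KO (adjusted p = 0.692) and was lower by 0.29 in del-cIDR (adjusted p = 4.09e-05). Snapc2 was higher by 0.42 in KO (adjusted p = 0.00478). On the deposited spike-in scale 8 of the 30 were higher and 0 lower in KO, and 0 were called in del-cIDR in either direction, against 28.3% and 2.96% (KO) and 8.25% and 2.65% (del-cIDR) of all tested genes.

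Of the genes whose products bind, process or respond to SINE RNA, 16 of 17 were tested. In KO 4 were higher and 1 lower (median 0.03), and in del-cIDR 2 were higher and 4 lower (median -0.02). Of the 8 with a clear split, 2 were higher and 0 lower in KO, and 2 higher and 0 lower in del-cIDR. On the deposited spike-in scale 7 of the 16 were higher and 0 lower in KO, and 1 higher and 0 lower in del-cIDR. Adarb1, which edits adenosine to inosine in double-stranded RNA, was higher by 0.59 ± 0.07 (SE) in del-cIDR (adjusted p = 1.05e-06) and had 0.11 in KO (adjusted p = 0.288). Eif2ak2, the kinase PKR that double-stranded RNA activates, was higher by 0.16 in KO (adjusted p = 0.00621). Hsf1, the heat shock transcription factor, was higher by 0.18 in del-cIDR (adjusted p = 0.0316). Of the 22 chromatin factors at SINE copies, 4 were higher and 7 lower in KO (median -0.04), and 1 higher and 14 lower in del-cIDR (median -0.18), but only 6 had a clear split, of which 1 was higher and 1 lower in KO, and 0 higher and 2 lower in del-cIDR. On the deposited spike-in scale 6 of the 22 were higher and 1 lower in KO, and 1 higher and 0 lower in del-cIDR. Dnmt3b, a de novo DNA methyltransferase, had a median level of 776 in WT, 416 in KO and 969 in del-cIDR. Relative to the median gene it was lower by 1.16 in KO (SE 0.05, adjusted p = 6.50e-15) and by 0.24 in del-cIDR (SE 0.05, adjusted p = 0.000844). Ctcf was higher by 0.18 in KO and lower by 0.35 in del-cIDR, with an unclear split. Between both mutants 38 of the listed genes were called, 12 higher and 26 lower in del-cIDR. On the deposited spike-in scale the listed genes called numbered 22 for KO minus WT, 2 for del-cIDR minus WT and 19 for del-cIDR minus KO, against 23, 32 and 38 relative to the median gene. In the last comparison 7.3% of all tested genes were higher and 19.6% lower on that scale.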

How the data were processed

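Nascent RNA was measured in 24 libraries: 3 genotypes, 4 labelling times and 2 libraries each. The authors aligned reads with HISAT2 to GRCm39 and used SAMtools and Picard, per the submitters' processing notes, which give no versions; the counting tool and any use of strand or of reads with several alignments were not stated in the labels. The authors deposited log2 ratios of each later labelling time to 10 min, for repeat loci and for genes. From the values, each is the log2 of a ratio of 1 + 40000 times the summed reads per spike-in read of 2 libraries. Whole reads of both libraries solved these equations for 100% of rows in both tables, with a largest relative error of 3e-15. Library A has more spike-in reads than library B of its group, and which of them carries which replicate number is unknown. For 155 repeat loci (1 B2 copy) and 2829 genes the split between A and B was unclear and was set to the usual ratio. The columns named ki were taken as del-cIDR, the genotype that remained.

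Levels are reads scaled to 11714 spike-in reads. Tested loci had reads in at least 6 libraries and a mean level of 10 or more; they were compared with limma 3.58.1 (R 4.3.3) on log2(level + 1), with a pseudocount of 1, after subtracting each library's median tested locus. All 12 groups entered 1 fit with a trend, contrasts averaged 4 labelling times, and p-values were Benjamini-Hochberg adjusted over all loci, with a threshold of 0.05. A fold change on this scale understates the change of low loci. Totals were tested by exact permutation of genotype within labelling time. The procedure was tested on simulated data.

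Named copies were the 10 highest, the 6 largest rises and 6 largest falls from WT and 3 of each between mutants (mean level of at least 20, 1 sign at 4 times, at least 50 kb apart), and the 3 with the smallest p for dependence on time in each mutant. Members, lists and rules were chosen with earlier results of these data known. Alternatives changed the scale, filter, pseudocount, normalization, loci and libraries. B2 sequences and gene positions are not given, since a genome of the files' build was not used here.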

Additional observations from a re-analysis of the deposited data

Results flagged for a closer look

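The B2 total per spike-in read changed differently from 10 min to the later times in del-cIDR. The difference of the later times from 10 min was 1.13 on the log2 scale for del-cIDR minus WT and 1.71 for del-cIDR minus KO. Both passed an exact permutation of genotype within labelling time, a contrast that was not among the planned tests. The permutation assumed no genotype difference at any time, so passing it is not particular to a change over time. Both values rest on the 2 del-cIDR libraries at 10 min, which hold 35.9 and 39.3 B2 reads per spike-in read. The value for del-cIDR minus KO rests also on the 2 KO libraries at 10 min, with 91.9 and 112. For the B2 share of repeat reads the same contrasts were 0.07 and 0.12 (exact permutation, adjusted p = 0.273 and 0.0509).

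The difference between del-cIDR and WT depended on labelling time at 3 named copies, by the limma F-test adjusted over all loci. These were chr3:157721036-157721232 (adjusted p = 0.00163), chr5:106827362-106827495 (adjusted p = 0.00629) and chr9:108129595-108129787 (adjusted p = 0.00906). The first pair had their low value at 10 min and the last its high value. Without the 10 min libraries 0 B2 copies were called.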

How the results depend on the processing

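No paired analysis was possible because the libraries recovered from the deposited ratios carry no replicate number. The planned contrast of genic with intergenic copies was not run, since gene annotation of the files' build was not used here. The 30 named differences kept their direction and their side of the threshold on the deposited spike-in scale, with a pseudocount of 5 and without the 10 min libraries. They also did so with each of the 24 libraries left out in turn, which gave 720 values. These copies were chosen from the same data by size, sign and adjusted p, so this is no independent support.

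Counts of called copies moved more, and the cause was not tested. On the deposited spike-in scale they became 4014 higher and 268 lower for KO minus WT, 113 lower for del-cIDR minus WT and 778 higher for del-cIDR minus KO, and 2 listed genes were called for del-cIDR minus WT and 19 for del-cIDR minus KO, against 32 and 38. With a pseudocount of 5, 1938 copies were higher in KO and 88 depended on time in del-cIDR. Without the 10 min libraries 782 were higher in del-cIDR and 0 depended on time. Without chromosomes 4, 6, 8, 11 and X, where fewer loci were tested, counts were 198 higher and 606 lower (KO minus WT), 215 and 374 (del-cIDR minus WT), and 1344 and 1097 (del-cIDR minus KO). Without a trend, 247 were higher and 528 lower in del-cIDR and 0 depended on time. Relative to neighbouring repeats the counts were 4 and 12, 2 and 2, and 60 and 17. The last 2 settings were chosen after seeing the data.

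Small values changed sign. The total of del-cIDR minus KO became 0.27 without the 10 min libraries and 0.012 relative to all repeat reads. The share of KO minus WT became -0.010 without the 10 min libraries and -0.0048 without chromosomes 4, 6, 8, 11 and X. Without the 10 min libraries the share slope was -0.020 and the slope of long minus short copies 0.0018.

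Leaving out 1 library gave 764 to 1821 rises and 970 to 2314 falls in KO, and 199 to 986 rises and 470 to 1626 falls in del-cIDR. The KO rises moved by over 1.5 times without A of WT 10 min (1821), B of WT 60 min (787), B of KO 40 min (788) or B of KO 60 min (764). The KO falls did without B of WT 40 min (970), A of WT 60 min (985) or A of KO 20 min (2314). In del-cIDR 13 of the 24 omissions moved the rises and 9 the falls by that much. The total of KO minus WT ran from 0.23 to 0.38 and passed the exact permutation test without B of WT 40 min (adjusted p = 0.0139). The share ran from -0.012 to 0.017 for KO minus WT and from -0.0023 to 0.027 for del-cIDR minus KO. The share slope ran from -0.0031 to 0.0073 and the slope of long minus short copies from -0.0084 to 0.0023. Depth limits single copies most: at mean levels of 10 to 20 the median SE was 0.29, at 100 or more 0.11.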
